A study of Mus musculus with 12 samples.

Results

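The genes described here are 42 genes of DNA replication and of the step from G1 into S phase, measured by RNA sequencing in mouse bone marrow monocytes. They were chosen by symbol for their known roles, with earlier results of these data known. They cover origin licensing, helicase activation, the replicative polymerases, the clamp and lagging strand, and nucleotide supply. Cyclin E and the E2F factors, the S-phase checkpoint, and the chromatin that is rebuilt behind the fork are also covered. All 42 were found among the 53819 genes counted, and all 42 passed the filter on low counts that left 13151 genes to test.

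The 12 libraries are from monocytes of wild-type C57Bl6J mice, in 4 groups of 3. The first group spent a night with platelets and received lipopolysaccharide (LPS) after a wash. LPS is a bacterial cell wall component that activates monocytes through Toll-like receptor 4. The second received LPS only, the third spent a night with platelets followed by the wash, and the fourth was untreated. They are called platelet plus LPS, LPS, platelet and untreated below. The night and the wash are described only for the groups with platelets. If the other groups had neither, platelets and this handling cannot be told apart. No source used here gives the doses, the duration of the LPS exposure or how the monocytes were purified. Whether replicates are separate mice or separate cultures is not stated either, so p-values reflect only how far these libraries scatter, which may be a technical spread.

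Before a cell can copy its DNA, the origin recognition complex, Cdc6 and Cdt1 load the Mcm2 to Mcm7 helicase onto origins in G1. At the start of S phase, Cdc45 and the GINS complex switch the helicase on, and polymerases, clamp and ligase then build both strands. Many of these genes are transcribed by E2F factors. The retinoblastoma protein holds the factors in check until cyclin-dependent kinases, among them that of cyclin E, phosphorylate it. Monocytes of the marrow arise from dividing progenitors, and mature monocytes are mostly out of the cell cycle.

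Libraries held 20060867 to 32155727 counted reads, so that a floor of 3 counts stood at 0.0853 to 0.163 CPM, the unit in which counts are scaled to the total of each library. Reads were amplified by PCR without molecular identifiers, so this floor covers counting error only. The 8 monocyte markers summed to 32560 to 41342 CPM per library, most of it Lyz2, the monocyte lysozyme. Of the T and NK cell markers, Cd3e and Ncr1 had no count in any library. Platelet replicate 1 carries the description "Control" although its title and treatment name platelets. It stood apart from its replicates (chi-square per degree of freedom 76.2 and 83.5, against 6.75 to 21.6 for all other replicate pairs), with 0.886% mitochondrial reads against 0.431% to 0.600% elsewhere. Its Gng11, a platelet G protein subunit, was at 148 CPM, against 77.1 and 73.6 CPM in platelet replicates 2 and 3 and 1.65 to 2.07 CPM in untreated libraries.

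The 42 genes together made up less of the RNA wherever LPS had been given. Their summed level was 1179 to 1195 CPM in the platelet plus LPS libraries, 1004 to 1047 CPM in the LPS libraries, 1858 to 2001 CPM in the platelet libraries and 1794 to 1851 CPM in the untreated libraries. All 6 libraries with LPS lay below all 6 without it. In bulk RNA, fewer cells in S phase and less of these RNAs per cell cannot be told apart.

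**Figure D1:**
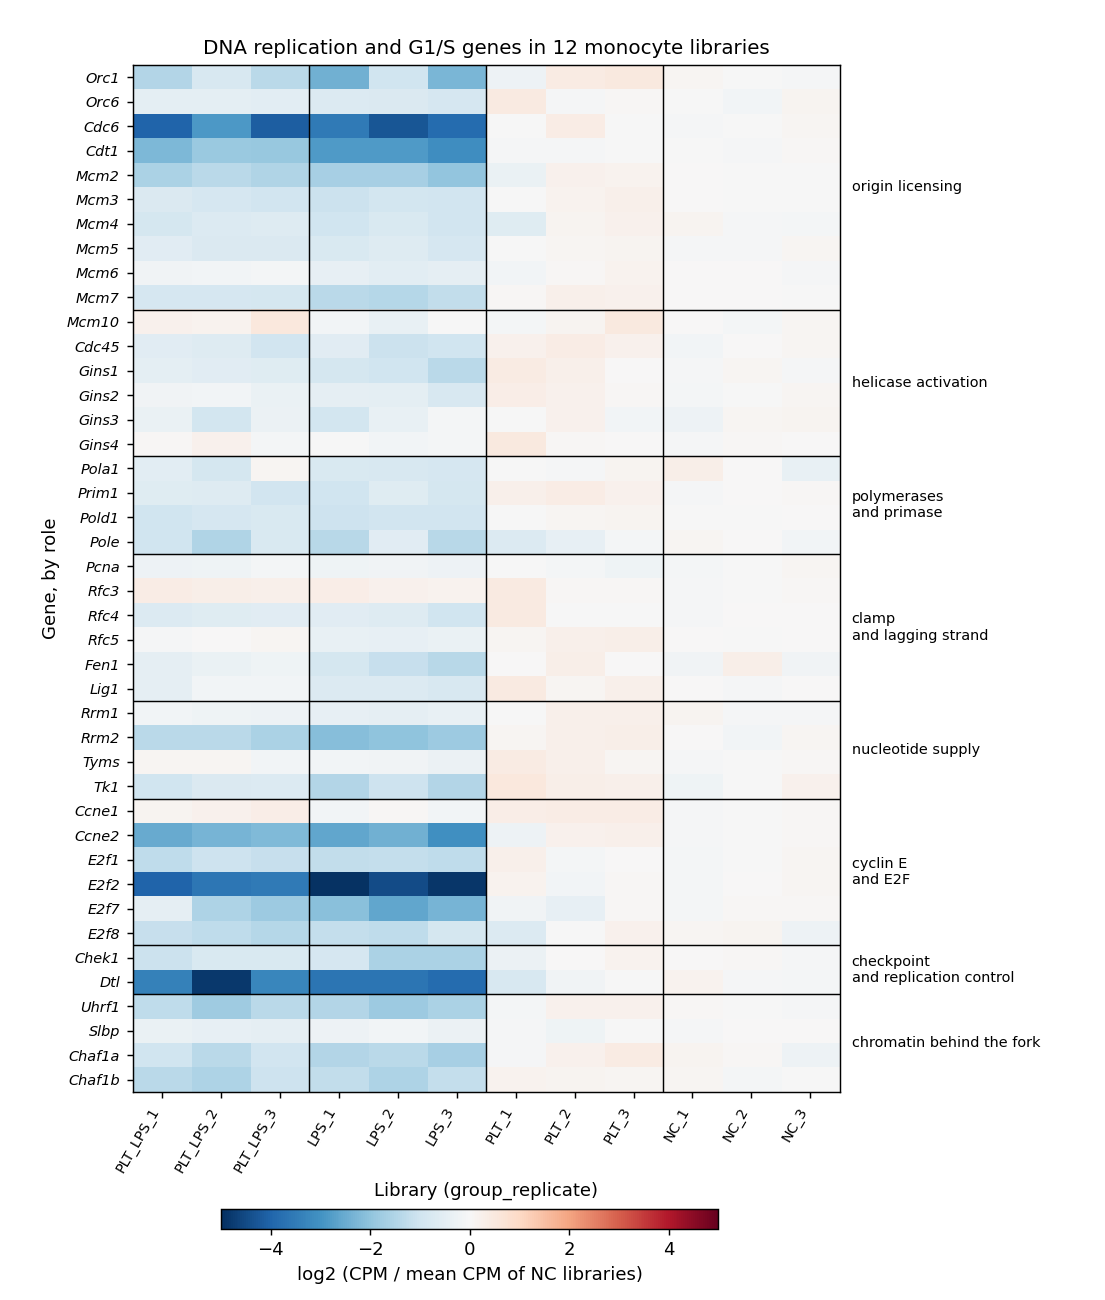
Level of each of the 42 genes (rows, by role) in each of the 12 libraries (columns, named by group and replicate, NC being untreated and PLT platelets), as the log2 of its CPM over the mean of the untreated libraries. Blue is lower and red higher. The 6 columns with LPS are blue for most genes, deepest for E2f2, Cdc6, Dtl, Ccne2 and Cdt1, and near white for Pcna and Slbp.

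LPS alone lowered 35 of the 42 genes and raised none at an adjusted p under 0.05 (edgeR quasi-likelihood test, Benjamini-Hochberg over all genes tested). That was 83.3% of them, where 23% of all genes tested were lower and 27.7% higher. The median log2 fold change of the 42 genes was -0.98, against 0.01 for all genes. In 38 of the 42, no LPS library overlapped an untreated one, as was the case for 60.5% of all genes tested. The size of the fall varied widely, from -4.74 for the activator E2f2 to -0.23 for Slbp, the histone mRNA binding protein, on the log2 scale.

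All 10 origin licensing genes fell with LPS. Cdc6, the loading ATPase, had 1.63, 0.974 and 1.31 CPM in LPS libraries, against 18.1, 18.6 and 19.95 CPM in untreated libraries. The groups were far apart, and the log2 fold change was -3.84 (SE 0.27, adjusted p = 5.37e-09). Cdt1, which brings the Mcm ring to the origin, had 12.2, 12.3 and 10.2 CPM in LPS libraries, against 85.4, 84.6 and 92.3 CPM in untreated libraries. Its log2 fold change was -2.91 (SE 0.11, adjusted p = 4.16e-12). The origin recognition subunit Orc1 changed by -1.73 and Orc6 by -0.75. The 6 subunits of the Mcm ring, which work as 1 complex, did not fall by 1 amount. Mcm2 changed by -1.76, Mcm7 by -1.35, Mcm3 by -0.98, Mcm4 by -0.91, Mcm5 by -0.74 and Mcm6 by -0.46. For Mcm6, a level of 130 ± 5.36 CPM in LPS libraries stood against 180 ± 4.90 CPM in untreated libraries (SD, n = 3 each).

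Helicase activation was lowered in part. Gins1, a subunit of the GINS complex, had 7.78, 7.11 and 5.56 CPM in LPS libraries, against 13.8, 15.3 and 13.8 CPM in untreated libraries (log2 fold change -1.06, SE 0.15, adjusted p = 1.47e-05). Cdc45 and Gins2 also fell, by 0.86 and 0.57 on the log2 scale. The other GINS subunits did not pass the test, Gins3 with -0.44 (adjusted p = 0.135) and Gins4 with -0.09 (adjusted p = 0.58). Mcm10, which helps to open the loaded helicase, had -0.17 (adjusted p = 0.404).

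All 4 polymerase and primase genes fell, by amounts close to each other. Pole, the catalytic subunit of the leading strand polymerase, had 3.80, 6.82 and 3.81 CPM in LPS libraries, against 10.8, 10.2 and 8.97 CPM in untreated libraries. The groups did not overlap, though LPS replicate 2 came near, and the log2 fold change was -1.05 (SE 0.24, adjusted p = 0.00201). Pold1, of the lagging strand polymerase, changed by -0.99, the primase Prim1 by -0.82 and Pola1, the polymerase that extends its primers, by -0.79.

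At the clamp and lagging strand, the processing enzymes fell and the clamp itself was close to the threshold. Fen1, the flap endonuclease that trims Okazaki fragments, had 1.92, 1.58 and 1.36 CPM in LPS libraries, against 3.15, 4.35 and 3.16 CPM in untreated libraries. The groups did not overlap (log2 fold change -1.12, SE 0.23, adjusted p = 0.000753). Fen1 shares exon bases with the antisense gene Tmem258, which held 42937 reads over the 12 libraries, against 1009 for Fen1. Whether counting used strand is not given, so reads of the 2 genes cannot be told apart there. The DNA ligase Lig1 changed by -0.73, and the clamp loader subunits Rfc4 and Rfc5 by -0.71 and -0.36. Pcna, the sliding clamp, averaged 129 ± 3.95 CPM in LPS libraries and 148 ± 9.94 CPM in untreated libraries (adjusted p = 0.0551). It was called lower under 8 alternatives, among them DESeq2 (adjusted p = 0.00938) and a fit of only the groups compared (adjusted p = 0.0187). Rfc3, another loader subunit, was the only 1 of the 42 with a positive log2 value, 0.25, and did not pass the test (adjusted p = 0.0839), except when platelet replicate 1 was left out (adjusted p = 0.0341).

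Of the 4 nucleotide supply genes, 3 fell. Rrm2, the small subunit of ribonucleotide reductase that cycling cells make in S phase, had 12.8, 13.9 and 16.01 CPM in LPS libraries, against 57.5, 51.4 and 60.5 CPM in untreated libraries (log2 fold change -1.99, SE 0.12, adjusted p = 4.87e-10). Its partner Rrm1, the large subunit, changed by -0.42. Thymidine kinase Tk1 changed by -1.29, whereas thymidylate synthase Tyms had -0.19 and did not pass the test (adjusted p = 0.159).

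The E2F genes and the cyclins E held both the largest and the smallest values. E2f2, an activating E2F, had 0.868, 1.22 and 0.926 CPM in LPS libraries, against 25.3, 27.0 and 28.6 CPM in untreated libraries. This 26.7-fold difference (log2 -4.74, SE 0.18, adjusted p = 2.06e-12) was the largest of the 42. The activator E2f1 fell by 1.22 on the log2 scale, and the atypical repressors E2f7 and E2f8 by 2.31 and 1.11. The cyclins E, which act with Cdk2, parted. Ccne2 had 3.44, 3.90 and 2.45 CPM in LPS libraries, against 19.9, 20.3 and 21.8 CPM in untreated libraries, a log2 fold change of -2.65 (adjusted p = 3.17e-09). Ccne1 had 16.6, 18.7 and 16.7 CPM in LPS libraries, against 17.3, 18.2 and 19.1 CPM in untreated libraries. These Ccne1 values overlapped, with a log2 value of -0.07 and a 95% interval of -0.28 to 0.14 (adjusted p = 0.607). Other scalings called Ccne1 lower, with -0.27 for upper-quartile factors (adjusted p = 0.0311) and -0.45 for library size alone (adjusted p = 0.00133).

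**Figure D2:**
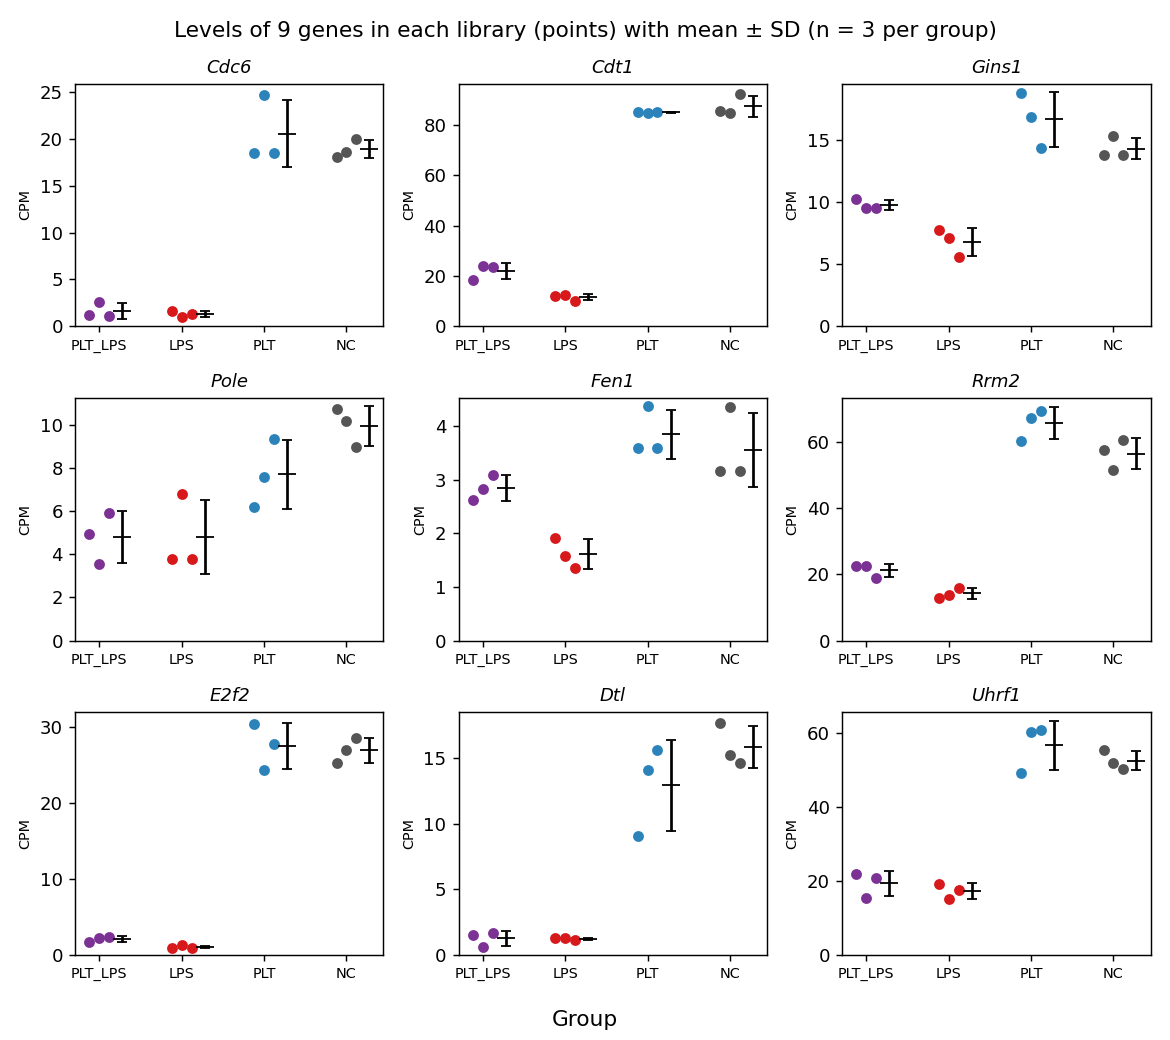
CPM of 9 genes in each library (points) with the group mean and SD (bars, n = 3), in the order platelet plus LPS, LPS, platelet and untreated. Cdc6, Dtl, E2f2 and Rrm2 are low in both groups with LPS, and Cdt1 is at 18.4 to 24.1 CPM with platelets and LPS, above the 10.2 to 12.3 CPM with LPS alone.

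Both checkpoint and control genes and all 4 chromatin genes fell. Dtl, the adaptor of the ubiquitin ligase that destroys Cdt1 in S phase, had 1.27, 1.26 and 1.09 CPM in LPS libraries, against 17.7, 15.2 and 14.6 CPM in untreated libraries (log2 fold change -3.70, SE 0.29, adjusted p = 2.31e-08). Chek1, the kinase of the replication checkpoint, changed by -1.27. Uhrf1, which guides maintenance of DNA methylation, had 19.2, 14.9 and 17.5 CPM in LPS libraries, against 55.3, 51.8 and 50.3 CPM in untreated libraries (log2 fold change -1.61, SE 0.14, adjusted p = 6.25e-08). Chaf1a and Chaf1b, of the histone chaperone CAF-1, changed by -1.48 and -1.31. Slbp was the weakest call (adjusted p = 0.029) and was lost in 4 of the 12 fits that left out 1 library, those without LPS replicate 1, LPS replicate 3, untreated replicate 2 or untreated replicate 3.

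The scaling bears on these values. With library size alone in place of trimmed mean scaling, the median of all genes stood at -0.37 and that of the 42 genes stood at -1.36. The count of lower members was then 41. Markers of other cells also moved with LPS. The basophil and mast cell list summed to 103 to 106 CPM in LPS libraries, against 1.26 to 2.38 CPM in untreated libraries, nearly all of it Hdc, the histamine-making enzyme. The basophil protease Prss34 fell (log2 -1.40, adjusted p = 0.0138), Gata2 rose (1.20, adjusted p = 0.0437), and Mcpt8 and Cpa3 had -1.30 and -1.94 and did not pass the test. All 3 tested erythroid markers fell, and that list summed to 98.4 to 119 CPM in LPS libraries, against 186 to 234 CPM in untreated libraries, nearly all of it Tfrc, the transferrin receptor. The stem and progenitor list summed to 7.13 to 8.71 CPM in LPS libraries, against 8.53 to 9.53 CPM in untreated libraries, and 3 of its 5 tested genes rose and 1 fell. Their part in the result was not tested.

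The promoters of the members were searched for the sequence that E2F factors bind. RefSeq promoter windows, from 250 bases before to 50 after the start of transcription (GRCm38.p6), were at hand for 36 of the 42 genes, in 42 windows. A window was searched on both strands for TTTCCCGC, TTTGGCGC, TTTCGCGC or TTTGCCGC. Of the 11 genes with a word before the start, the stretch around it is shown for 7, to let the words be compared between genes with large and small falls. These are the licensing genes Orc1, Cdc6, Mcm5 and Mcm6, the repressor E2f7 and Dtl, and Gins3, which did not pass the test. Mcm7, Pola1, Uhrf1 and Rfc3, the gene with the positive log2 value, also hold a word before the start and are not shown. Each stretch is in the direction of its gene, with the E2F words in capitals.
Orc1, chr4:108579397-108579453, plus strand: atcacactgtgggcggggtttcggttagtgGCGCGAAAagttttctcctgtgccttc
Cdc6, chr11:98907983-98908050, plus strand: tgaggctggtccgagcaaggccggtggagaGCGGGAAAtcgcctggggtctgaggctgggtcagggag
Mcm5, chr8:75109326-75109397, plus strand: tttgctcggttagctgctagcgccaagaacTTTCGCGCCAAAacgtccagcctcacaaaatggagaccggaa
Mcm6, chr1:128359715-128359845, minus strand: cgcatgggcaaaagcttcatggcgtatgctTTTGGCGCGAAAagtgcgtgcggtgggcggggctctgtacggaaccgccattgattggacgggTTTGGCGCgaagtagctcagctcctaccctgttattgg
E2f7, chr10:110745211-110745278, plus strand: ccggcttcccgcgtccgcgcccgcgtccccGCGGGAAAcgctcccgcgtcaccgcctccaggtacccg
Dtl, chr1:191575545-191575582, minus strand: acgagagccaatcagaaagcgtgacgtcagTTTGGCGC
Gins3, chr8:95633488-95633555, plus strand: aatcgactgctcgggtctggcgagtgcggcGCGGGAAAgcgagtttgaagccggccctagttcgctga

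The word begins 8 bases before the start in Dtl, 27 in Orc1, 41 in Gins3, 138 in Cdc6 and 198 in E2f7. In Mcm5 and in the upstream site of Mcm6, 2 words on opposite strands overlap in 1 run, and Mcm6 holds another word 47 bases before the start. Cdt1 and E2f2 hold a word after the start, at positions 33 and 40. In all, 16 of the 42 windows (38.1%) held a word, against 744 of 32851 RefSeq windows (2.26%). Base composition was not matched in that count, and the words hold CG pairs that are common in some promoters and rare in others. By gene, 14 of the 30 genes that fell with LPS (46.7%) and 2 of the 6 that did not pass the test (33.3%) held a word, and whether these shares differ was not tested. A match is a stretch of letters and no record of binding.

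**Figure D3:**
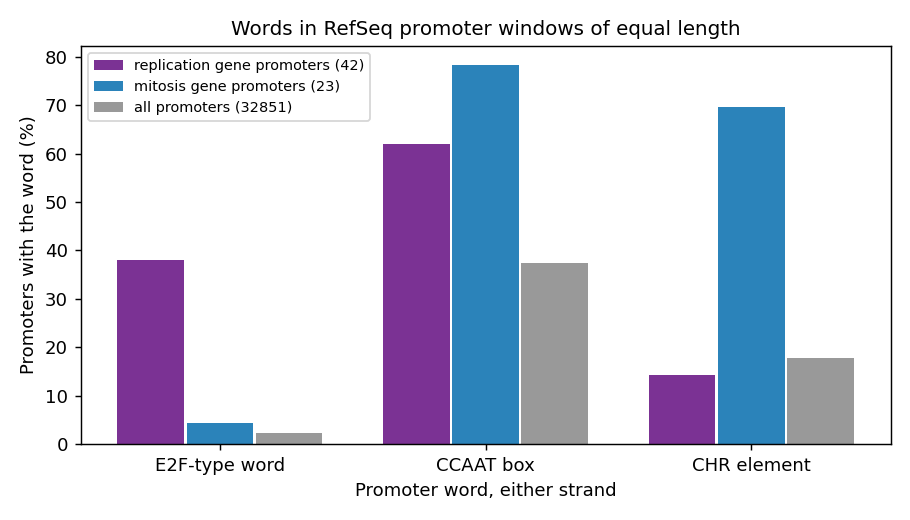
Share of promoter windows, in percent, that hold an E2F word, the CCAAT box or the cell cycle homology region (CHR) element TTTGAA on either strand, for the 42 replication windows, 23 windows of mitosis genes and all 32851 windows. E2F words are in 38.1% of replication windows and 4.35% of mitosis windows, and TTTGAA is in 14.3% and 69.6%.

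With platelets present, LPS again lowered these genes. Set against platelets alone, platelets plus LPS lowered 31 of the 42 and raised none (73.8%, where 21.8% of all genes tested were lower and 27.6% higher), with a median log2 fold change of -0.81. The 31 were all among the 35 that fell with LPS alone. The 4 others, Mcm6, Pola1, Rfc5 and Fen1, had log2 values of -0.18, -0.41, -0.21 and -0.44 with platelets, against -0.46, -0.79, -0.36 and -1.12 without. None of the 4 passed the test of the difference itself (adjusted p from 0.417 to 0.79). Each of the 4 was called lower with platelets under some alternatives. In DESeq2, Mcm6 and Rfc5 passed (adjusted p = 0.038 and 0.0146). Both also passed in edgeR without platelet replicate 1 (adjusted p = 0.0011 and 0.00539). Pola1 passed without platelet plus LPS replicate 3 (adjusted p = 0.00633), and Fen1 with upper-quartile factors (adjusted p = 0.0152). Mcm10, Gins3, Gins4, Pcna, Rfc3, Tyms and Ccne1 missed the threshold in both settings. Pcna passed it with LPS alone under the alternatives given above, and Tyms passed it with platelets in DESeq2 (adjusted p = 0.0215). With upper-quartile factors, which shifted the whole gene table, Pcna, Tyms, Ccne1 and Gins3 were called lower in both settings, and Gins4 with platelets. With library size alone, Mcm10 was called lower without platelets (adjusted p = 0.012) and Rfc3 with them (adjusted p = 0.048).

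The deepest falls were alike in order. E2f2 had 1.67, 2.23 and 2.35 CPM in platelet plus LPS libraries, against 30.4, 24.3 and 27.8 CPM in platelet libraries (log2 fold change -3.73, SE 0.16, adjusted p = 1.14e-11). Cdc6 had 1.16, 2.61 and 1.10 CPM in platelet plus LPS libraries, against 18.5, 24.7 and 18.5 CPM in platelet libraries (log2 fold change -3.68, adjusted p = 6.38e-09). Dtl had 1.53, 0.556 and 1.64 CPM in platelet plus LPS libraries, against 9.04, 14.1 and 15.6 CPM in platelet libraries (log2 fold change -3.36, adjusted p = 6.52e-08). For all 3 genes no library of the groups overlapped. Pole and E2f7 were the less steady calls. Pole (log2 -0.68, adjusted p = 0.0294) missed the threshold without platelet plus LPS replicate 1 or 2 or platelet replicate 2 or 3, and E2f7 (log2 -0.96, adjusted p = 0.0117) without platelet plus LPS replicate 2 or 3. The comparison has no library in common with that of LPS against untreated cells.

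**Figure D4:**
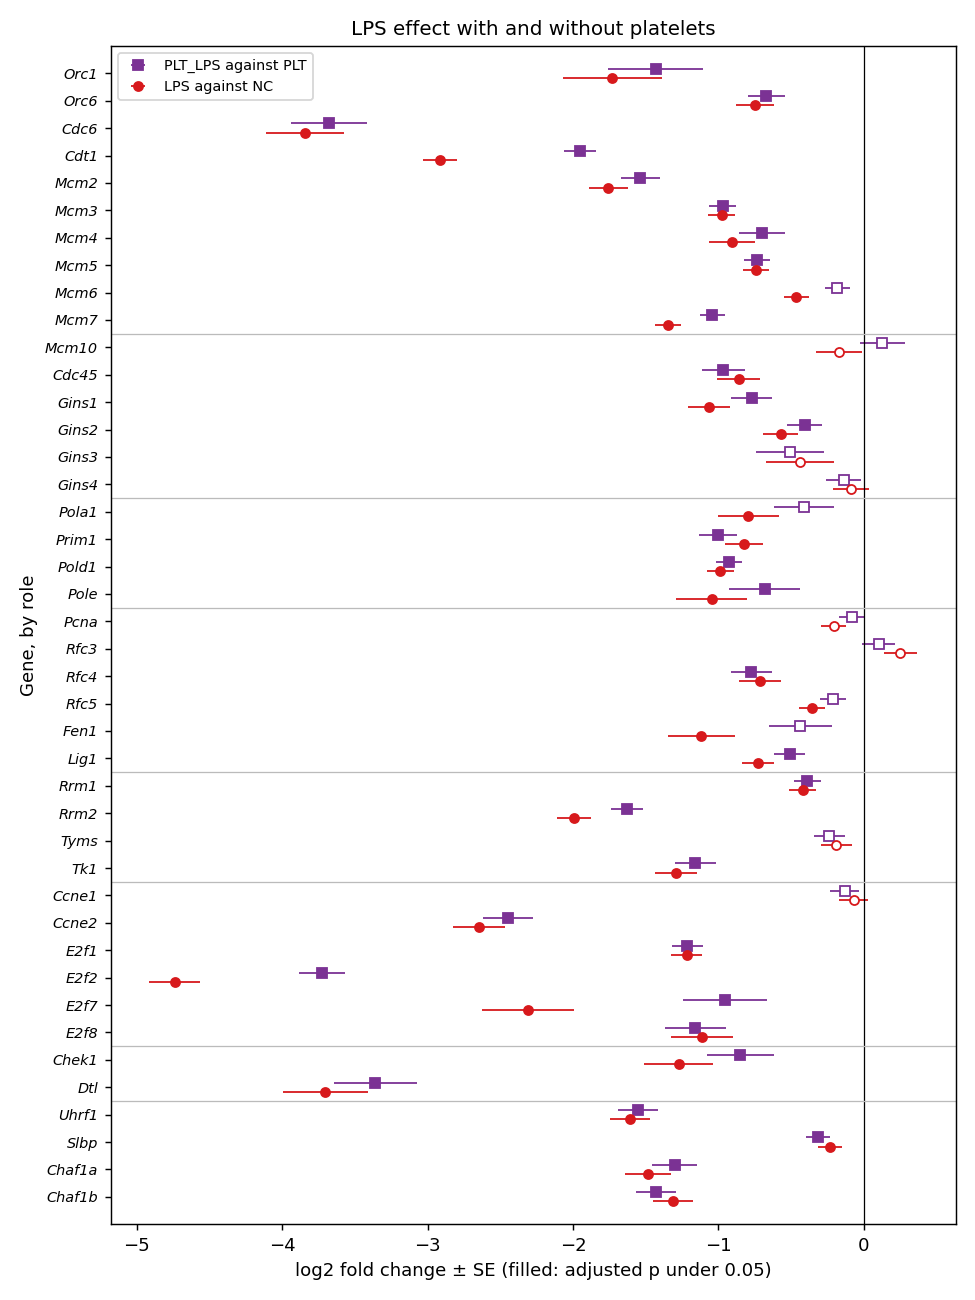
Log2 fold change with LPS for each of the 42 genes, with bars of 1 SE either way, in the presence of platelets (squares, platelet plus LPS against platelet) and without them (circles, LPS against untreated). Filled marks passed the adjusted p threshold of 0.05. The squares reach from -3.73 to 0.13 and the circles from -4.74 to 0.25.

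After LPS, the cells that had met platelets held more of some of these RNAs. Platelets plus LPS raised 10 of the 42 genes over LPS alone and lowered none (23.8%, where 4.41% of all genes tested were higher and 2.87% lower), with a median log2 fold change of 0.26 against 0.01 for all genes. The 10 were Cdt1, Mcm6 and Mcm7 of licensing, Gins1 of helicase activation, Rfc5 and Lig1 of the lagging strand, Rrm2 and Tk1 of nucleotide supply, and E2f2 and E2f7. None was a polymerase, checkpoint or chromatin gene. The count fell to 5 when platelet plus LPS replicate 2, platelet plus LPS replicate 3 or LPS replicate 3 was left out, and to 6 without LPS replicate 1, LPS replicate 2 or untreated replicate 2. No member was called lower in any of these fits.

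Cdt1 had 18.4, 24.1 and 23.5 CPM in platelet plus LPS libraries, against 12.2, 12.3 and 10.2 CPM in LPS libraries. Every library with platelets was above every one without, and the log2 fold change was 0.92 (SE 0.11, adjusted p = 0.000101). The platelet plus LPS level was still far below the 84.6 to 92.3 CPM of libraries without LPS. For E2f2, 1.67, 2.23 and 2.35 CPM in platelet plus LPS libraries stood against 0.868, 1.22 and 0.926 CPM in LPS libraries. These did not overlap either (log2 fold change 1.04, SE 0.21, adjusted p = 0.00548), but the call was lost when only the groups compared were fitted (adjusted p = 0.0783). E2f7 had the largest value, 1.17 (SE 0.32, adjusted p = 0.0395), and it leaned on 1 library. Its platelet plus LPS replicates 1 to 3 had 4.44, 2.10 and 1.72 CPM, against 1.45, 1.02 and 1.20 CPM in LPS libraries, and without platelet plus LPS replicate 1 the value was 0.64 (adjusted p = 0.223).

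Mcm7, Rrm2 and Lig1 followed with smaller rises. Mcm7 had 34.7, 34.6 and 33.4 CPM in platelet plus LPS libraries, against 24.1, 23.1 and 26.2 CPM in LPS libraries (log2 fold change 0.49, adjusted p = 0.00268). Rrm2 had 22.4, 22.4 and 18.9 CPM in platelet plus LPS libraries, against 12.8, 13.9 and 16.01 CPM in LPS libraries (log2 fold change 0.58, adjusted p = 0.00549). Neither gene's groups overlapped. Lig1 had a log2 fold change of 0.49 (adjusted p = 0.0117), Rfc5 0.37 (0.0198), Mcm6 0.33 (0.0337), Gins1 0.51 (0.0474) and Tk1 0.50 (0.0479), the adjusted p standing in brackets. Cdt1, Mcm7, Rrm2 and E2f2 kept their calls in all 12 fits that left out 1 library. Lig1 lost its call without platelet plus LPS replicate 2 or 3 or LPS replicate 3 (adjusted p up to 0.0606), and Rfc5 without platelet plus LPS replicate 2 or 3 or LPS replicate 1 or 2 (up to 0.0777). Tk1 lost it in 6 fits, those without platelet plus LPS replicate 2 or 3, LPS replicate 1 or 3, platelet replicate 2 or untreated replicate 2 (up to 0.178). Gins1, Mcm6 and E2f7 lost it in 9, 8 and 7 fits (up to 0.186, 0.138 and 0.223). Gins1 kept it without LPS replicate 1 or platelet replicate 1 or 3, Mcm6 without any 1 of the platelet replicates or untreated replicate 3, and E2f7 without platelet plus LPS replicate 2 or 3 or any 1 of the platelet replicates. Of the 32 genes not called, the values ran from -0.17 for Slbp to 0.80 for Fen1, whose 2.62, 2.83 and 3.09 CPM in platelet plus LPS libraries stood above 1.92, 1.58 and 1.36 CPM in LPS libraries but narrowly missed the threshold (adjusted p = 0.0519).

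Platelets alone gave few calls in this gene set. Of the 42 genes, 1 was higher (2.38%) and none was lower in platelet than in untreated libraries. Over all genes tested, 3.63% were higher and 2.86% lower, so the share called higher was near that of all genes. DESeq2 likewise called 1 higher and none lower, against 5.51% and 3.69% of the genes it adjusted. At an unadjusted p under 0.05, 7 were higher and none lower by edgeR, against 9.68% and 10.2% of all genes tested. The median log2 fold change was 0.13, against 0 for all genes, and 33 of the 42 values were positive. The summed level was 1858 to 2001 CPM in platelet libraries and 1794 to 1851 CPM in untreated libraries, which did not overlap. That difference was not tested. The gene called was Ccne1, with 23.1, 23.6 and 23.7 CPM in platelet libraries, against 17.3, 18.2 and 19.1 CPM in untreated libraries. The groups did not overlap (log2 fold change 0.37, SE 0.10, adjusted p = 0.0374). The call was lost in 8 of the 12 fits that left out 1 library, with adjusted p of 0.0508 to 0.166. It stood without platelet replicate 1, platelet plus LPS replicate 3, LPS replicate 2 or LPS replicate 3. Without platelet replicate 1, 3 genes were called, Rfc5 and Rrm1 besides Ccne1. Cdt1 averaged 85.0 ± 0.289 CPM in platelet libraries and 87.4 ± 4.21 CPM in untreated libraries (SD, n = 3 each), a log2 value of -0.04 with a 95% interval of -0.26 to 0.18.

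Whether platelets acted differently with LPS than without was tested gene by gene as an interaction, the platelet effect with LPS minus the platelet effect without it. It called 1 of the 42 genes higher and none lower, where 0.859% of all genes tested were higher and 0.722% lower. DESeq2 called 2 higher and none lower, against 1.44% and 1.64% of the genes it adjusted. At an unadjusted p under 0.05, 7 were higher and none lower by edgeR, against 6.13% and 4.48% of all genes tested. The gene was Cdt1, with a difference of 0.96 on the log2 scale (SE 0.15, adjusted p = 0.00388). In the fold of LPS over no LPS, this stood as -1.95 with platelets and -2.91 without. E2f2 had a difference of similar size, 1.01 (SE 0.24, adjusted p = 0.0528), and E2f7 of 1.35 (SE 0.43, adjusted p = 0.181). E2f2 was the other gene called by DESeq2 (adjusted p = 0.0137). In edgeR it passed with no filter (0.0299), with library size alone (0.0423), and without platelet replicate 1 (0.0268) or platelet plus LPS replicate 1 (0.0427). E2f7 passed with no filter (adjusted p = 0.0224). The comparisons of platelet plus LPS with LPS and with platelets share the platelet plus LPS libraries.

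**Figure D5:**
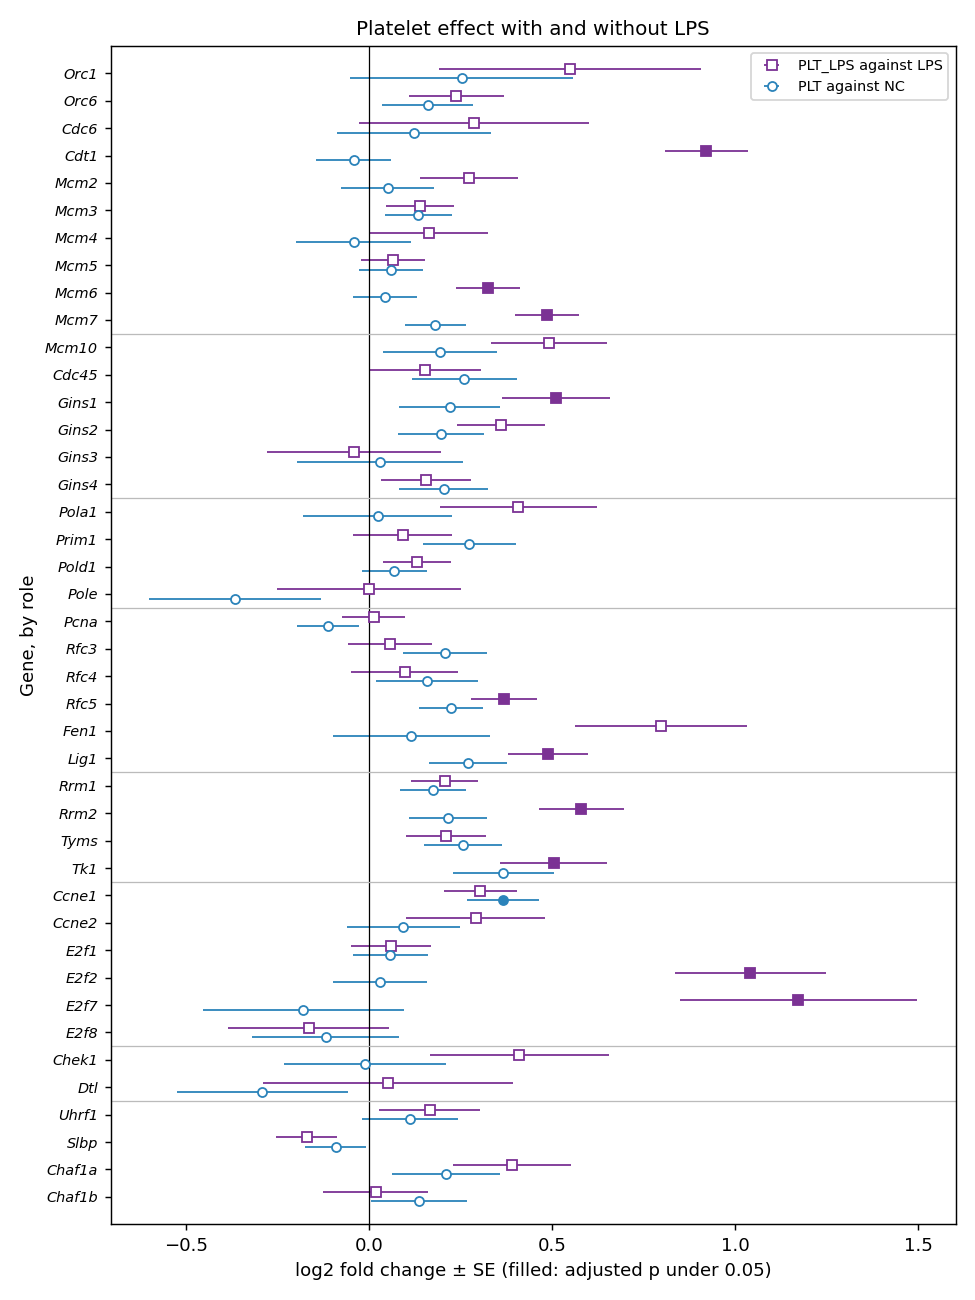
Log2 fold change with platelets for each of the 42 genes, with bars of 1 SE either way, after LPS (squares, platelet plus LPS against LPS) and without LPS (circles, platelet against untreated). Filled marks passed the adjusted p threshold of 0.05. Cdt1, E2f2 and E2f7 lie at 0.92, 1.04 and 1.17 with LPS, and at -0.04, 0.03 and -0.18 without.

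Some platelet markers were higher in the libraries with platelets, and the source of that RNA was not tested. Of 7 tested platelet and megakaryocyte markers, 4 were higher in platelet plus LPS than in LPS libraries, and Gp9, a platelet membrane glycoprotein, had 3.45 to 4.45 CPM in platelet plus LPS libraries against 0 to 0.0724 CPM in LPS libraries. The list summed to 3465 to 3766 CPM in platelet plus LPS libraries and 3659 to 4438 CPM in LPS libraries, nearly all of it Pf4, which was abundant in all 4 groups. The stem and progenitor list summed to 7.82 to 16.4 CPM in platelet plus LPS libraries and 7.13 to 8.71 CPM in LPS libraries, the highest library being platelet plus LPS replicate 1, with 4.18 CPM of Mpo, the myeloperoxidase of early myeloid cells. Of the 3 tested erythroid markers 2 were higher. Hba-a1, an alpha globin, had 5.32 to 6.98 CPM in platelet plus LPS libraries against 0 to 0.0812 CPM in LPS libraries, while that list summed to 114 to 130 CPM and 98.4 to 119 CPM in the same groups. Of the 5 basophil and mast cell markers 2 were higher, the proteases Mcpt8 (0.430 to 3.34 CPM against 0.0406 to 0.218 CPM) and Prss34 (2.86 to 5.56 CPM against 0.284 to 0.362 CPM). That list summed to 82.4 to 93.6 CPM in platelet plus LPS libraries and 103 to 106 CPM in LPS libraries. Their part in the rises was not tested.

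Other genes of the same pathway moved with LPS as well. Over all genes tested, 23% were lower and 27.7% higher with LPS alone. Of 13 further licensing and firing genes 9 fell and 1 rose with LPS alone, among them Gmnn, the inhibitor of Cdt1 (log2 -2.94, adjusted p = 4.38e-10), and the origin kinase Cdc7 (-1.74). Of 20 further fork genes 11 fell and none rose, with the largest falls in Wdhd1 (-2.12) and the checkpoint mediator Clspn (-1.83). Of 21 further G1/S control genes 12 fell and 4 rose. Fbxo5, an inhibitor of the anaphase promoting complex, fell by 2.21, and Skp2, a subunit of the ligase that destroys p27, by 1.46. Of 20 further genes of S-phase chromatin and repair 14 fell and 2 rose, with -2.26 for the mitotic inhibitor kinase Wee1 and -1.85 for the remodeller Hells.

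Nucleotide supply beyond the members went both ways. Of 17 genes 10 fell and 2 rose with LPS alone (58.8% and 11.8%, where 23% and 27.7% of all genes tested did). Samhd1, which breaks down deoxynucleotides, had 420, 414 and 405 CPM in LPS libraries, against 68.0, 65.7 and 74.0 CPM in untreated libraries (log2 fold change 2.58, adjusted p = 3.49e-13). Dck, a kinase that salvages deoxynucleosides, rose by 2.25 (adjusted p = 1.46e-10), and Dut, which removes dUTP, fell by 1.51 (adjusted p = 4.09e-07). Gmnn ranged over 9.80 to 11.8 CPM in platelet plus LPS libraries and 7.53 to 11.2 CPM in LPS libraries. These overlapped, unlike those of its target Cdt1 (log2 value of Gmnn 0.20, adjusted p = 0.594). In the same comparison, of platelet plus LPS with LPS, none of the 13 further licensing and firing genes was called. Among the further fork genes 1 of 20 rose (5%), and among those of nucleotide supply 1 of 17 (5.88%). For G1/S control 3 of 21 rose (14.3%) and 1 fell, and for S-phase chromatin and repair 3 of 20 rose (15%). Over all genes tested, 4.41% were higher and 2.87% lower. Wee1 and Fbxo5 were among those that rose, by 0.93 and 0.67 (adjusted p = 0.00775 and 0.0287).

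The genes of mitosis and G2/M, which act after replication, were counted beside the 42. With LPS alone 16 of 25 fell and none rose (64%, where 23% of all genes tested were lower), with a median of -0.47. With platelets plus LPS over LPS, 18 of 25 rose and none fell (72%, where 4.41% of all genes tested were higher). The median there was 0.47. Plk1, the polo kinase of mitotic entry, had 29.1, 29.2 and 30.4 CPM in platelet plus LPS libraries, against 18.2, 17.7 and 15.96 CPM in LPS libraries (log2 fold change 0.77, adjusted p = 0.000343). The mitotic kinase Aurka rose by 0.73 (adjusted p = 0.00011). Their summed level was 764 to 807 CPM in platelet plus LPS libraries, 564 to 619 CPM in LPS libraries, 894 to 925 CPM in platelet libraries and 724 to 770 CPM in untreated libraries. The platelet plus LPS libraries thus lay among or above the untreated ones for mitosis genes, whereas the sum of the 42 replication genes stayed below. Set against platelets alone, platelets plus LPS still lowered 9 of the 25 mitosis genes and raised none, with a median of -0.21. That was 36%, where 21.8% of all genes tested were lower. Whether the lists differ was not tested.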

How the data were processed

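Per the labels, the 12 libraries of bone marrow monocytes come from RNeasy Plus Micro RNA, with cDNA by SMARTer Ultra Low Input (v4) and tagmentation by Nextera XT. The deposited values are raw counts of reads for each gene, which the authors did not normalize. Tools named in the submitters' processing notes, without a role, are Salmon 1.5.2, featureCounts, Subread 2.0.1, STAR 2.7.9a and fastp 0.23.1. The build, the annotation and whether counting used strand are not given in any source used here. By GENCODE M21, 16 members share exon bases with an antisense gene (Orc1, Orc6, Mcm7, Cdc45, Gins2, Pole, Rfc4, Rfc5, Fen1, Lig1, Tk1, Ccne2, E2f7, E2f8, Slbp and Chaf1a), so reads of the partners cannot be told apart.

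Groups came from titles and treatment labels. Counts were filtered with filterByExpr, given TMM factors (trimmed mean of M-values) and modelled in edgeR 4.0.16 in R 4.3.3, all 12 libraries in 1 quasi-likelihood fit of 4 group means with 8 degrees of freedom left. Two-sided tests had Benjamini-Hochberg adjustment over 13151 genes and a threshold of 0.05. CPM used the TMM-scaled library size. Fold changes and standard errors (SE) come from the fit. On counts simulated for LPS against untreated, 98.5% of 200 genes changed 2-fold were recovered among 12843 genes. The changed genes were drawn only from those with higher mean CPM, so the share does not cover low members such as Orc1 and Fen1.

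The 42 members, the other gene lists and the markers were chosen with earlier results of these data known. All members could be named, with values per library for the largest LPS change of each role group and for genes called in the interaction. From other lists, up to 3 genes per comparison with the largest called change were taken, and some that this rule takes are not reported here. Ccne1, Ccne2, E2f7, Mcm6, Mcm7, Pcna and markers other than the most abundant of a list were given values per library or group after their values were seen. The alternatives tried were library size alone, upper-quartile factors, DESeq2 size factors, no filter, a stricter filter (1 CPM and 10 counts in 3 libraries), a replicate block, DESeq2 1.42.0, a fit of only the groups compared, and omission of each library in turn.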

Additional observations from a re-analysis of the deposited data

Results flagged for a closer look

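Cdt1 was the only member to pass the test of the difference itself in the main fit. Its platelet effect was 0.92 with LPS and -0.04 without on the log2 scale, a difference of 0.96 (SE 0.15, 95% interval 0.64 to 1.29, adjusted p = 0.00388 by edgeR's quasi-likelihood test). Over 19 alternatives the difference ran from 0.89 to 1.08, with adjusted p from 5.92e-07 to 0.0186, and it passed the threshold in each. Gmnn, the inhibitor of Cdt1, had 0.15 in the same test (adjusted p = 0.914). In the interaction, the alternatives called 1 to 3 of the 42 genes higher and none lower.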

How the results depend on the processing

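The 35 and 31 genes lower with LPS stayed between 34 and 41 and between 29 and 41 under every alternative. Library size alone and upper-quartile factors shifted the whole gene table, by more than 0.1 in the median log2 value of both LPS comparisons, and DESeq2 size factors did not. Library size alone gave 2133 higher and 5975 lower genes for LPS against untreated, and 2194 and 5749 for platelet plus LPS against platelet. Upper-quartile factors gave 4623 lower genes in that second comparison. The members' medians were -1.18 and -1.05 with upper-quartile factors and -1.36 and -1.17 with library size alone. Ccne1, called for platelets against untreated, left 0 members with library size alone, no filter, the replicate block and only the groups compared. For that comparison DESeq2 called 726 genes higher, no filter 577 lower, and the groups compared alone 261 and 154. The groups compared alone gave 620 lower genes for platelet plus LPS against LPS. In the interaction, library size alone and DESeq2 called 2 members and no filter 3, with 228 and 143 genes higher and lower without a filter, and 176 and 200 by DESeq2. The labels state no pairing of libraries by replicate number. In deviations from the group mean, same-numbered libraries of different groups correlated at -0.23 to 0.14, and differently numbered ones at -0.19 to 0.24. With 3 libraries per group, this cannot settle whether libraries were paired. With the replicate block the members called were 0 higher (platelets against untreated), 34 lower (LPS against untreated), 8 higher (platelet plus LPS against LPS), 31 lower (platelet plus LPS against platelet) and 1 higher (interaction), and the interaction called 62 genes higher and 56 lower. Leaving out 1 library gave ranges. For platelets against untreated these were 0 to 3 members higher, 261 to 590 genes higher, 149 to 502 lower and a median of 0.10 to 0.15. For LPS against untreated they were 0 to 1 higher, 34 to 36 lower, 3263 to 3941 and 2630 to 3485 genes, and -1.01 to -0.93. For platelet plus LPS against LPS they were 5 to 12 higher, 372 to 863 and 185 to 777 genes, and 0.19 to 0.28. For platelet plus LPS against platelet they were 29 to 33 lower, 3304 to 3636 and 2531 to 3284 genes, and -0.99 to -0.79. For the interaction they were 1 to 2 higher, 47 to 153 and 40 to 208 genes, and 0.060 to 0.17. The cause of these moves was not tested. Genes near 1 CPM, such as Cdc6, Dtl and E2f2 with LPS, rest on few reads.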

Other observations

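Some mitosis genes were higher with platelets alone. In platelet against untreated libraries 7 of 25 mitosis and G2/M genes rose and none fell, with a median log2 fold change of 0.27, where 3.63% of all genes tested rose. Ccnb2, a mitotic cyclin, rose by 0.47 (adjusted p = 0.0238), Ube2c, an enzyme of the anaphase promoting complex, by 0.43 (adjusted p = 0.0157) and the mitotic cyclin Ccnb1 by 0.40 (adjusted p = 0.013). Cks1b, a Cdk subunit counted with the G1/S control genes, rose by 0.54 (adjusted p = 0.0249), while the retinoblastoma gene Rb1 fell by 0.46 (adjusted p = 0.0377). In the interaction none of the 25 mitosis genes was called by edgeR, and 6 were higher and none lower at an unadjusted p under 0.05, where 6.13% of all genes were higher. Markers of other cells were higher in the same platelet libraries, namely 4 of 5 basophil and mast cell markers (list sum 7.21 to 9.50 CPM, against 1.26 to 2.38 CPM in untreated libraries), 2 of 3 tested erythroid markers (203 to 242 CPM against 186 to 234 CPM), 2 of 7 tested platelet markers (3229 to 5888 CPM against 3544 to 4250 CPM) and 1 of 5 tested stem and progenitor markers (11.3 to 12.2 CPM against 8.53 to 9.53 CPM). Their part in the result was not tested. Whether platelets moved the lists by different amounts was not tested.

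Pseudogenes named after a member held few reads. Copies under other names, sequence identity and reads that match several places were not examined. Over all 12 libraries the pseudogene Pcna-ps2 held 130 reads, 0.289% of those of Pcna, and Tyms-ps held 9, 0.0884% of those of Tyms.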
